A study of Mus musculus with 2 samples.

Results

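A set of 9 genes that mark microglia at rest was followed through the CD45+ cells of the injured thalamus: *P2ry12*, *P2ry13*, *Tmem119*, *Cx3cr1*, *Siglech*, *Gpr34*, *Sall1*, *Slc2a5* and *Fcrls*. They were chosen by name as known homeostatic microglia genes, with earlier results of these data known. All 9 symbols were found once each among the 33696 genes of both matrices. The cells came from C57B6/J mice aged 12 weeks with cortical ablation injury (CAI), an injury of cortex that is connected with the thalamus. Through a cannula in the thalamus, 1 group received an antibody against the tetraspanin CD9 (anti-CD9 Ab) and the other normal rat IgG (control Ab), both at 1.0 μg/μl from day 7 to day 19, and live CD45+ cells were sorted on day 21 for 10x single-cell RNA sequencing. CAI, strain, age, cannula and sorting were shared by both groups, so neither is an uninjured or uninjected reference. There was 1 library per antibody. The methods pooled cells of 4 mice for thalamus libraries and do not repeat that number for these 2 libraries, and antibody, pool of mice and library preparation cannot be told apart.

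Microglia are the resident macrophages of the brain and survey the tissue with motile processes. In the healthy brain they keep a set of sensing receptors and identity genes switched on, under transforming growth factor β signals and transcription factors such as PU.1 and SALL1, and this set is known to fall when microglia take up damage-associated or inflammatory states. Of the 9 genes, *P2ry12* and *P2ry13* encode receptors for ADP that direct process movement, *Cx3cr1* the receptor for the neuronal chemokine fractalkine, and *Gpr34* a receptor for lysophosphatidylserine. *Siglech* encodes a sialic acid-binding lectin that signals through the adaptor TYROBP, *Fcrls* an Fc receptor-like protein, *Tmem119* a membrane protein used as a microglia marker, *Slc2a5* the fructose transporter GLUT5, and *Sall1* a zinc finger transcription factor of microglial identity. Several are not unique to microglia: *Cx3cr1* is also carried by monocytes, macrophages and some dendritic and NK cells, and *Siglech* by plasmacytoid dendritic cells.

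*P2ry12* and *P2ry13* lie beside each other on the minus strand of chromosome 3, both inside the opposite-strand gene *Med12l*, and *Gpr34* lies on chromosome X inside the opposite-strand gene *Cask* (GENCODE, mouse build GRCm38). *Cx3cr1* overlaps 5 coding genes in that annotation, 3 of them on its own strand, and the other 5 genes overlap none. RefSeq promoters of 300 bases (250 before and 50 after the annotated start, GRCm38.p6) were matched for 7 of the 9 genes; *Tmem119* and *Gpr34* were not matched. The promoters of the neighbours *P2ry12* and *P2ry13* are shown because both genes also appeared in neutrophils below. That of *Siglech* is shown because it had few UMIs in those neutrophils. That of *Fcrls* is shown because its order among microglia clusters differed from that of *P2ry12*. Capitals mark GGAAGT or GAGGAA on either strand (ACTTCC and TTCCTC read on the other strand), 2 stretches of the sequence PU.1 is known to bind.
P2ry12 promoter, chr3:59262936-59263235, minus strand: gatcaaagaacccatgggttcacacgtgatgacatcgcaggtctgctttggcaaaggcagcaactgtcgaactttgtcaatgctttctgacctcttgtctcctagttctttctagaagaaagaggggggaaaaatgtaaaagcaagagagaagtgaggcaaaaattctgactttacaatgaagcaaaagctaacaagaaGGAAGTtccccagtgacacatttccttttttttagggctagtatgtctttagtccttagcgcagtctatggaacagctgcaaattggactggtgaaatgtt
P2ry13 promoter, chr3:59210833-59211132, minus strand: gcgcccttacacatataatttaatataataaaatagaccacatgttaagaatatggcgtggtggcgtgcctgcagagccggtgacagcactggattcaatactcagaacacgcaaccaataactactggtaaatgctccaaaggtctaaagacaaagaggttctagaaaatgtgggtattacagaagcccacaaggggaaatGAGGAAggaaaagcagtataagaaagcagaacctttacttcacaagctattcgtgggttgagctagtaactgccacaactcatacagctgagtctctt
Siglech promoter, chr7:55767934-55768233, plus strand: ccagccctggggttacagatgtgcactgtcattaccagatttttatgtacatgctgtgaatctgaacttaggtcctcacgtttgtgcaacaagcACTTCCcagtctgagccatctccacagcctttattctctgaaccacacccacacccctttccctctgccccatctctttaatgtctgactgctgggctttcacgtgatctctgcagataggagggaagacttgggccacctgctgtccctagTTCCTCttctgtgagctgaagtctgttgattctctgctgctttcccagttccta
Fcrls promoter, chr3:87263475-87263774, minus strand: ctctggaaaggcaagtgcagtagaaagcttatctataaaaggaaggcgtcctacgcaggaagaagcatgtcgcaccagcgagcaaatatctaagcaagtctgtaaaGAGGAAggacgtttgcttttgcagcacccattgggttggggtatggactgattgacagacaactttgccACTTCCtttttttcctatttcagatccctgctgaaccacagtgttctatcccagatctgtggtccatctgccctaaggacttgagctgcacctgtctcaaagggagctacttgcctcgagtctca
At least 1 of these letter runs was present in 5 of the 9 promoters held for the 7 genes (*Sall1* has 3), and in 43.4% of all 32817 mouse promoters of this length in the table. No 2 runs overlapped in the promoters shown. The promoters held for *Cx3cr1* and *Slc2a5* and 2 of the 3 for *Sall1* contained neither run.

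After the study's quality limits (200 to 7500 genes and no more than 2% mitochondrial counts), 7467 cells under control Ab and 9162 under anti-CD9 Ab were kept, at medians of 1880 and 1419 unique molecular identifiers (UMIs, one per captured RNA molecule) per cell. The cells fell into 28 clusters, built and named without the 9 genes. Those called microglia-like had 8 to 11 of 11 other microglia markers raised. Microglia-like cells were 2011 under control Ab (26.9% of kept cells) and 870 under anti-CD9 Ab (9.50%), and macrophage-like cells were 210 and 1261. The medians over microglia-like cells were 3168 and 3310.5 UMIs, but their clusters were not matched in depth. Medians were 2338.5 and 3185 UMIs in microglia-like cluster 2, and 4434.5 and 3594 UMIs in cluster 3. Levels are CPM, the UMIs of a gene divided by all UMIs of the same cells and scaled to one common total, and intervals are 95% and cover counting error only, since 1 library per antibody allows no test. The libraries shared 54 cell barcodes, of which 35 and 30 were kept cells.

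In microglia-like cells, 8 of the 9 genes had a lower CPM under anti-CD9 Ab and *Tmem119* did not. Their summed level went from 5512 CPM (5468 to 5556) under control Ab to 3455 CPM (3390.1 to 3521) under anti-CD9 Ab, for a summed log2 ratio of −0.67 (−0.70 to −0.64). The median log2 ratio of the 9 genes was −0.59, beside 0.02 over the 11250 genes with at least 50 UMIs in these cells. Lower by any amount were 8 of the 9, against 47.2% of all genes. Lower by 2-fold or more were 3 of the 9 (*Fcrls*, *Gpr34* and *Slc2a5*), against 4.52% of all genes, and none was 2-fold higher, against 3.18%.

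Among the nucleotide receptors, *P2ry12* was at 1020.4 CPM under control Ab (1002 to 1039) and 679 CPM under anti-CD9 Ab (650.4 to 709), which is a log2 ratio of −0.59 (−0.66 to −0.52). *P2ry13* was at 109 CPM (103 to 115) and 84.4 CPM (74.5 to 95.2), a log2 ratio of −0.36 (−0.56 to −0.17). Both ADP receptors were thus lower under anti-CD9 Ab, by less than 2-fold. The fractalkine receptor *Cx3cr1* differed less: it was at 1440.0 CPM (1418 to 1462) and 1274 CPM (1235 to 1315), a log2 ratio of −0.18 (−0.23 to −0.13). The lysophosphatidylserine receptor *Gpr34* went from 735 CPM (719 to 751) to 286 CPM (268 to 306), a log2 ratio of −1.36 (−1.46 to −1.26). Only 306 of the 11250 genes had a lower ratio than *Gpr34*.

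*Siglech* was at 470 CPM (457 to 482) and 280 CPM (261 to 299), a log2 ratio of −0.75 (−0.85 to −0.64). *Fcrls* showed the largest difference of the 9, from 1186 CPM (1165 to 1206) to 349 CPM (329 to 371), a log2 ratio of −1.76 (−1.85 to −1.67), and 185 of the 11250 genes had a lower ratio. The fructose transporter *Slc2a5*, with 698 and 96 UMIs in all, went from 62.9 CPM (58.4 to 67.8) to 30.9 CPM (25.04 to 37.8), a log2 ratio of −1.03 (−1.35 to −0.72). The transcription factor *Sall1* was at 217 CPM (208 to 226) and 185 CPM (171 to 201), a log2 ratio of −0.23 (−0.36 to −0.09). *Tmem119* was at 273 CPM (263 to 283) and 286 CPM (267 to 305), and the interval of its log2 ratio of 0.07 held 0 (−0.04 to 0.18). The 2 genes used most as surface markers of microglia, *P2ry12* and *Tmem119*, therefore differed in their ratios in the same cells.

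**Figure D1:**
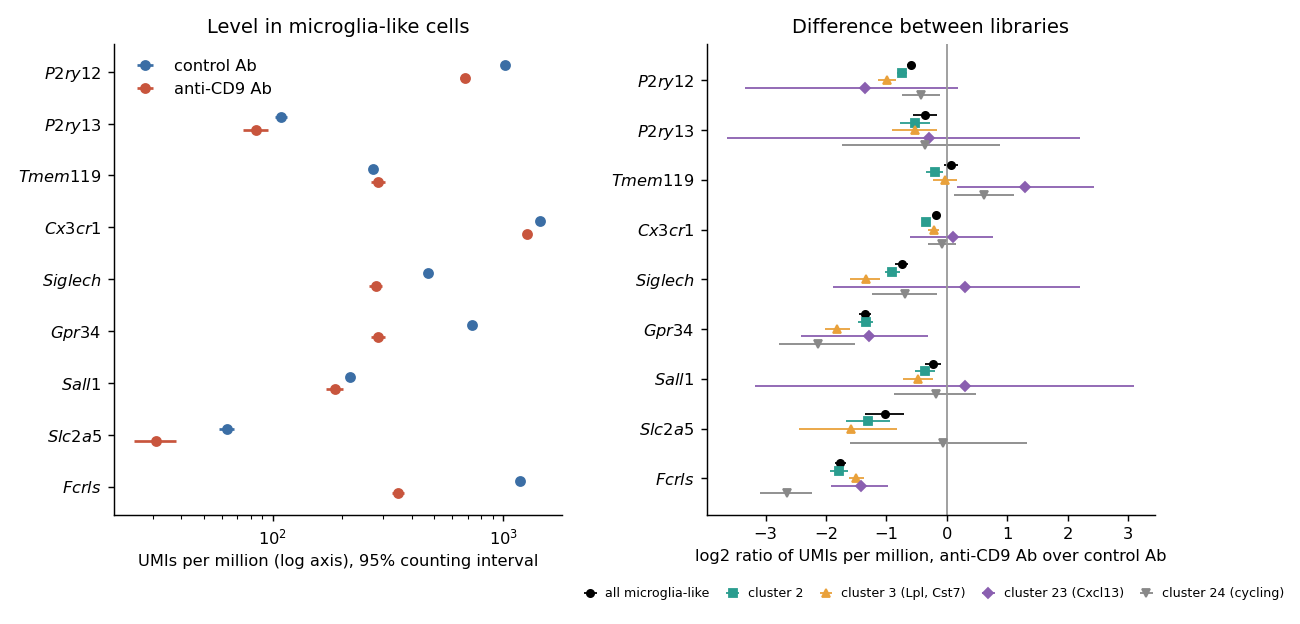
Left, the level of each of the 9 genes in microglia-like cells (CPM, log axis) under control Ab (blue) and anti-CD9 Ab (red); right, the log2 ratio of anti-CD9 Ab over control Ab in all microglia-like cells and in each of their 4 clusters, with 0 marked by a line. Bars are 95% counting intervals; *Fcrls* and *Gpr34* lie left of −1 in every cluster, and *Tmem119* lies near or right of 0 except in cluster 2.

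The microglia-like cells comprised 4 clusters. Cluster 2 (942 cells under control Ab and 462 under anti-CD9 Ab) carried the highest summed level of the 9 genes. Cluster 3 (936 and 318 cells) was led by the damage-associated genes *Lpl*, *Cst7* and *Spp1*, cluster 23 (78 and 40 cells) by *Cxcl13*, and cluster 24 (55 and 50 cells) by cell cycle genes. The summed level went from 7486 to 4471 CPM in cluster 2 (log2 ratio −0.74, −0.78 to −0.71) and from 4583 to 2516 CPM in cluster 3 (−0.87, −0.92 to −0.81). Cluster 23 went from 2415 to 1351 CPM and cluster 24 from 4256 to 2460.2 CPM. The lower sum was therefore seen in each of the 4 clusters, with log2 ratios from −0.87 to −0.74, all further from 0 than over all microglia-like cells together. Single genes were less uniform in the 2 small clusters. In cluster 23, 4 of the 8 genes with a ratio were lower and 4 higher, with a median log2 ratio of −0.10 and 2 intervals below 0. In cluster 24, 8 of 9 were lower, with a median of −0.35 and 4 intervals below 0.

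In cluster 2 all 9 genes were lower under anti-CD9 Ab and every interval lay below 0. Their median log2 ratio was −0.75, beside −0.03 over the 9143 genes with at least 50 UMIs in this cluster. The share of all genes with an interval below 0 was not computed. *Fcrls* (892 to 260.0 CPM), *Gpr34* (1062 to 418 CPM) and *Slc2a5* (118 to 47.9 CPM) were 2-fold lower there, 3 of 9 against 3.35% of all genes. *P2ry12* went from 1686 to 1004 CPM and *Siglech* from 819 to 438 CPM. *Tmem119* also had a lower level in this cluster, 414 against 361 CPM, with a log2 ratio of −0.20 (−0.34 to −0.06). In cluster 3, *Siglech* (299 to 118 CPM), *Gpr34* (583 to 166 CPM), *Slc2a5* (36.0 to 12.0 CPM) and *Fcrls* (1327 to 470.2 CPM) were 2-fold lower, 4 of 9 against 4.86%. *P2ry12* in cluster 3 went from 698 to 352 CPM, and *Tmem119* was at 206 and 203 CPM. Scaling by median-of-ratios size factors in place of CPM puts every cluster 3 ratio 0.11 lower.

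*Tmem119* stood higher under anti-CD9 Ab in the 2 small clusters: 83 and 62 UMIs in the cycling cluster gave 175 and 269 CPM (log2 ratio 0.62, 0.12 to 1.11), and 15 and 15 UMIs in the *Cxcl13* cluster gave 75.8 and 186 CPM (1.29, 0.16 to 2.43). Predicted doublets made up 20% and 16.9% of these clusters. With every cluster given its control Ab share of UMIs in both libraries, the *Tmem119* ratio was −0.08 in place of 0.07, and that of *P2ry12* −0.83 in place of −0.59. The share of cluster 2 among microglia-like cells, where both genes were higher in either library, thus entered the ratios taken over all microglia-like cells.

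*Fcrls* also followed a different order among clusters. With control Ab, *P2ry12*, *P2ry13*, *Tmem119*, *Cx3cr1*, *Siglech*, *Gpr34*, *Sall1* and *Slc2a5* were lower in the *Lpl* and *Cst7* cluster 3 than in cluster 2, whereas *Fcrls* was higher (1327 CPM, 1299 to 1355, against 892 CPM, 862 to 923). The same held under anti-CD9 Ab, at 470.2 CPM (433 to 510) against 260.0 CPM (235 to 287). *Fcrls* was also at 1500.2 CPM in the *Cxcl13* cluster under control Ab, where *P2ry12* was at 126 and *Siglech* at 40.4 CPM.

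To compare cells over ranges of the damage-associated state, microglia-like cells with at least 2000 UMIs were thinned to 2000 UMIs and split into 3 bands of equal size over both libraries, by the mean log2(count + 1) of 20 damage-associated genes, none of which is among the 9. The bands are ranges of a score and not cell types, and 488 of the 2227 cells lay within 0.1 of a limit. The lowest band held 326 cells under control Ab and 416 under anti-CD9 Ab, the middle 496 and 246, and the highest 679 and 64. Within a band the libraries were not at equal scores: the medians were 0.645 and 0.663 in the lowest band, 1.32 and 1.12 in the middle and 1.98 and 1.86 in the highest. The summed level of the 9 genes was 8244 against 4020.4 CPM in the lowest band (log2 ratio −1.04, −1.10 to −0.97), 5880.0 against 3549 CPM in the middle (−0.73, −0.81 to −0.65) and 4593 against 2422 CPM in the highest (−0.92, −1.09 to −0.76). The lower sum under anti-CD9 Ab was thus present within each band, including the band with the least damage-associated RNA.

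In the lowest band all 9 genes had intervals below 0, and the share of all genes with such an interval was not computed for the bands. *P2ry12* was at 1957 and 885 CPM, *Siglech* at 1061 and 400.2 CPM, *Gpr34* at 1216 and 339 CPM, and *Fcrls* at 661 and 203 CPM. *Slc2a5* was at 169 and 48.1 CPM, and *Sall1* at 413 and 239 CPM. *Tmem119* was at 469 and 361 CPM in this band (log2 ratio −0.38, −0.61 to −0.15) and at 303 and 325 CPM in the middle one (0.10, −0.19 to 0.38). *Cx3cr1* was at 2121 and 1454 CPM in the lowest band and 1610 and 1311 CPM in the middle one. *Fcrls* was higher in bands of higher score in both libraries, from 661 to 1689 CPM under control Ab and from 203 to 1016 CPM under anti-CD9 Ab, while the other 8 genes were lower in the highest than in the lowest band.

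**Figure D2:**
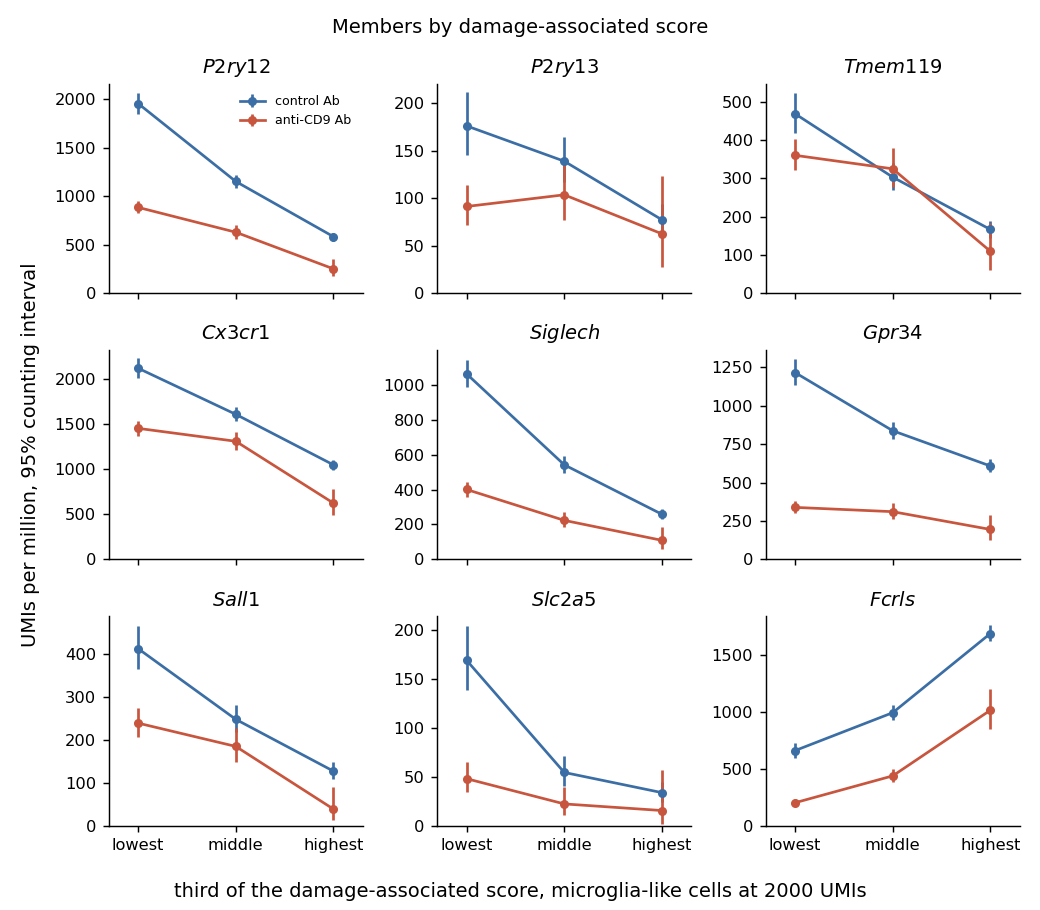
Level of each of the 9 genes (CPM, linear axes from 0) in 3 equal bands of the damage-associated score, for microglia-like cells thinned to 2000 UMIs, under control Ab (blue) and anti-CD9 Ab (red) and 95% counting intervals. Of the 9 genes, only *Fcrls* rises from the lowest to the highest band, and anti-CD9 Ab lies below control Ab in all bands except the middle band of *Tmem119*; the highest band holds 64 cells under anti-CD9 Ab.

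Per cell, the same thinning to 2000 UMIs left 1501 microglia-like cells under control Ab and 726 under anti-CD9 Ab (510 and 144 shallower cells were left out). With control Ab a cell held UMIs of 4.74 ± 1.69 of the 9 genes (mean ± SD over cells) and under anti-CD9 Ab of 3.64 ± 1.65. Cells with 5 or more of the genes were 57.3% (54.7 to 59.8%) and 29.6% (26.3 to 33.1%). Cells with none of the 9 were 6 of 1501 and 17 of 726. In cluster 2 alone the mean was 5.78 against 4.28 genes, and in cluster 3 4.14 against 2.93. Without thinning, the share with 5 or more was 77.6% and 52.1%.

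**Figure D3:**
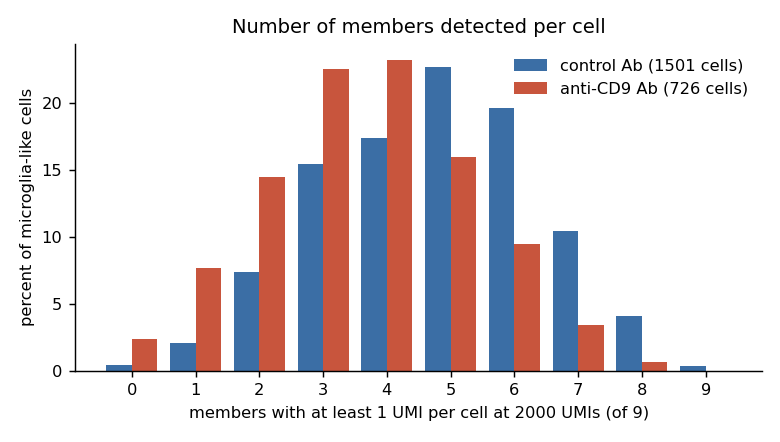
Percent of microglia-like cells, thinned to 2000 UMIs, by the number of the 9 genes with at least 1 UMI, under control Ab (blue, 1501 cells) and anti-CD9 Ab (red, 726 cells). The distribution under anti-CD9 Ab peaks at 3 to 4 genes per cell and that under control Ab at 5.

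At 1000 UMIs per cell, a UMI of *Cx3cr1* was found in 75.8% (73.9 to 77.7%) of microglia-like cells under control Ab and 69.3% (66.1 to 72.4%) under anti-CD9 Ab. The shares for *Fcrls* were 62.4% and 23.9%, for *P2ry12* 61.0% and 47.0%, for *Gpr34* 53.0% and 25.3%, and for *Siglech* 39.7% and 23.8%. In T cell-like cells the shares at the same depth were 4.37% and 2.77% for *Gpr34*, 2.73% and 1.66% for *Cx3cr1*, 3.59% and 0.665% for *Fcrls*, 1.47% and 0.776% for *P2ry12*, and 0.775% and 0.222% for *Siglech*. T cell-like cells had medians of 1550.0 and 2276 UMIs before thinning. The microglial shares were thus above those of T cell-like cells for each of these genes in both libraries.

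Other genes known for the homeostatic state were read from a list of 24. In microglia-like cells 17 of them were lower and 7 higher under anti-CD9 Ab, with a median log2 ratio of −0.29, and 3 were 2-fold lower. The lowest were the uroplakin *Upk1b* (17.9 to 3.86 CPM, −2.22), the leukotriene C4 synthase gene *Ltc4s* (190.1 to 78.9 CPM, −1.27) and *Ecscr* (90.0 to 43.8 CPM, −1.04). Among the higher were the crystallin *Crybb1* (60.4 to 131 CPM, 1.11) and the interleukin-10 receptor chain *Il10ra* (225 to 280 CPM, 0.31). The list thus moved less uniformly than the 9 genes, and its summed level went from 7189 to 6683 CPM.

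Of 24 partners and regulators of the 9 genes, 21 had at least 50 UMIs; 13 of these were lower and 8 higher, with a median log2 ratio of −0.12. *Tyrobp*, the adaptor of SIGLEC-H, was at 1659 and 1248 CPM (−0.41). The transforming growth factor ligand *Tgfb1* was at 182 and 117 CPM (−0.63) and its receptor *Tgfbr1* at 1408 and 1057 CPM (−0.41). *Entpd1*, the ectoenzyme CD39 that degrades extracellular ATP and ADP, was at 388 and 469 CPM (0.27). The ligand of CX3CR1, *Cx3cl1*, is made by neurons and had 5 and 1 UMIs. The lowest of the list were the growth factor *Csf1* (424 to 202 CPM, −1.07), *Tgfb1* and the transcription factor *Maf* (366 to 268 CPM, −0.45). The highest were *P2ry14*, a receptor for UDP-sugars (9.20 to 50.9 CPM, 2.47), the ATP-gated channel *P2rx4* (180.0 to 278 CPM, 0.62) and *Runx1* (691 to 881 CPM, 0.35). Among the purinergic genes, *P2ry12* and *P2ry13* were therefore lower, whereas *P2ry14*, *P2rx4* and the UDP receptor *P2ry6* (236 to 290.4 CPM, 0.30) were higher. *Spi1*, which encodes PU.1, was at 356 and 328 CPM (−0.12, −0.22 to −0.02).

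Other gene groups also differed between the libraries in the same cells. Of the 11 microglia markers used for naming, 10 were lower and 1 higher under anti-CD9 Ab (median log2 ratio −0.23, summed 43477 to 37374 CPM). All 20 damage-associated genes were lower under anti-CD9 Ab (summed 73838 to 35713 CPM), all 12 interferon-responsive genes were higher (1254 to 2537 CPM), and all 8 cell cycle markers were higher (85.1 to 227 CPM). The cycling cluster 24 held 55 of the 2011 and 50 of the 870 microglia-like cells. Within cluster 2 the cell cycle sum was 18.1 and 32.3 CPM, and within cluster 3 it was 28.2 and 36.9 CPM. Of the 16 dissociation-response genes, 14 had at least 50 UMIs, of which 9 were lower and 5 higher, with a median log2 ratio of −0.64, beside −0.59 for the 9 genes. T cell markers in microglia-like cells were at a summed 277 and 66.7 CPM, with none of the 10 markers at 0, and of 8 macrophage markers with at least 50 UMIs 6 were higher and 2 lower under anti-CD9 Ab (median log2 ratio 1.01, summed 2500.5 and 2183 CPM). The part of these groups in the levels of the 9 genes was not tested beyond alternative settings. Without predicted doublets the summed log2 ratio was −0.69, and with the damage-associated genes taken out of the total it was −0.73. With the T cell CPM subtracted it was −0.66, and in clusters 2 and 3 only it was −0.65. A further cluster that could not be named, cluster 12 (329 and 214 cells with medians of 801 and 828 UMIs), carried the 9 genes at a summed 4549 and 2032 CPM (log2 ratio −1.16), and cluster 19, 96.2% predicted doublets, at 4332 and 2380 CPM.

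In macrophage-like cells the 9 genes were also lower under anti-CD9 Ab, but the control Ab level depended on which cells were counted. These cells formed cluster 1, with 7 of 11 macrophage and 4 of 8 monocyte markers. The summed level was 1245 CPM (1187 to 1304) in 210 cells under control Ab and 350 CPM (336 to 364) in 1261 cells under anti-CD9 Ab. Counting the 8 that reached 50 UMIs, 7 were 2-fold lower, against 6.77% of all genes. Without predicted doublets 6 of the genes reached 50 UMIs, and 3 of them were 2-fold lower: *P2ry12* (log2 ratio −1.19), *Gpr34* (−3.16) and *Fcrls* (−1.47). The share of all genes was not computed for the cells without doublets, so this count has no background. The log2 ratio of *Cx3cr1* was −0.40 there in place of −1.09. Predicted doublets held 64.9% of the genes' UMIs under control Ab and 18.5% under anti-CD9 Ab. Without those doublets the sum was 671 CPM (619 to 727) and 379 CPM (362 to 396), a log2 ratio of −0.83 in place of −1.83, and without integration of the libraries it was 435 and 357 CPM (−0.28). With another random seed of the clustering it was 2340 and 368 CPM (−2.67). *Tmem119* changed direction with the doublets: it was at 57.9 and 41.4 CPM in all macrophage-like cells (log2 ratio −0.48) and at 27.5 and 45.6 CPM without predicted doublets (0.73). *P2ry13* was at 21.4 and 10.0 CPM with the doublets and 9.89 and 10.4 CPM without them. The microglia markers used for naming, none of them among the 9 genes, also differed in macrophage-like cells. Under anti-CD9 Ab 10 of the 11 were lower (median log2 ratio −1.54), at a summed 21188 and 10991 CPM. Without the mostly doublet sub-clusters described next, the sums were 18720 and 11069 CPM.

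The macrophage-like cells were clustered again without the 9 genes, which gave 6 sub-clusters. A sub-cluster led by *S100a9* and *Sparc*, 90.4% predicted doublets and carrying 8 of 11 microglia and 7 of 9 neutrophil markers, held 35 of the 210 control Ab cells and 58.2% of their UMIs of the 9 genes. In the sub-cluster led by *Spp1*, *Gpnmb* and *Fabp5*, the summed level did not differ beyond counting error, although single genes did. The sum was 404 CPM (355 to 458) in 101 cells and 435 CPM (394 to 478) in 175 cells, a log2 ratio of 0.11 (−0.13 to 0.34). *Cx3cr1* was at 170.1 and 191 CPM there, *Fcrls* at 150.5 and 161 CPM and *P2ry12* at 32.7 and 31.3 CPM. *Gpr34* was lower there under anti-CD9 Ab (21.3 and 6.27 CPM, log2 ratio −1.76, −3.44 to −0.27), *Siglech* had 9 and 0 UMIs and *Sall1* 5 and 0, while *Tmem119* had 0 and 37. The sub-cluster led by *Tmem176b*, *H2-Eb1*, *Cd72* and *H2-Aa*, which include MHC class II genes, went from 1752 CPM in 33 cells to 698 CPM in 305 cells. The *Nos2*-led sub-cluster had 8 cells under control Ab and 480 under anti-CD9 Ab, which carried the 9 genes at 163 CPM (148 to 179). The sub-cluster led by the monocyte genes *Chil3*, *Vcan* and *Ccr2* had 14 and 225 cells and stood at 985 and 194 CPM.

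**Figure D4:**
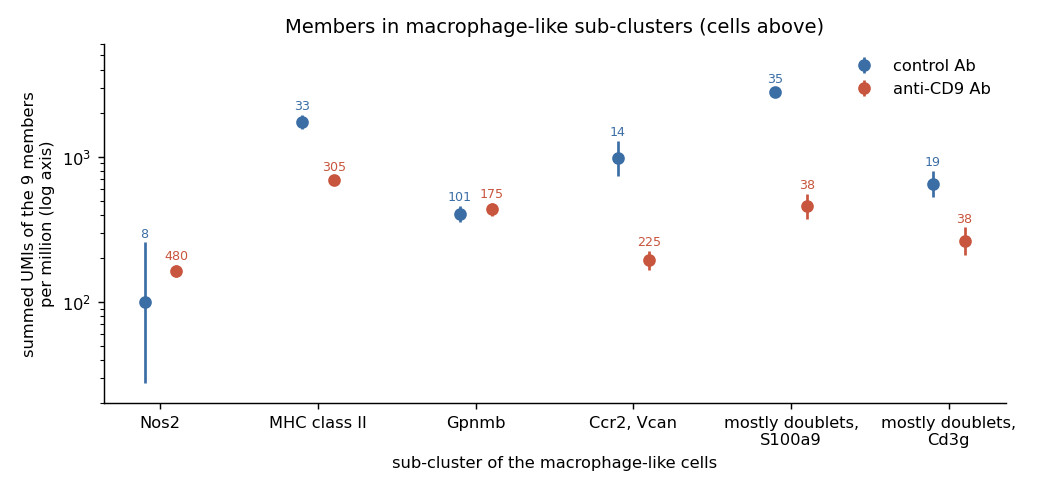
Summed level of the 9 genes (CPM, log axis, 95% counting intervals) in 6 sub-clusters of the macrophage-like cells under control Ab (blue) and anti-CD9 Ab (red), with the number of cells above each point. The *Gpnmb* sub-cluster is at about the same level in both libraries (404 and 435 CPM), and the highest point belongs to 35 control Ab cells of a sub-cluster that is 90.4% predicted doublets.

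With anti-CD9 Ab the macrophage-like cells carried the 9 genes in other proportions than microglia did. *Cx3cr1* was at 199 CPM, *Fcrls* at 56.1 CPM, *Tmem119* at 41.4 CPM (276 UMIs) and *P2ry12* at 33.0 CPM, whereas *Siglech* had 8 UMIs, *Sall1* 10 and *Slc2a5* 2 UMIs in the 1261 cells. There were 27.6 *Tmem119* UMIs per *Sall1* UMI (14.8 to 58.2), against 1.54 in microglia-like cells of the same library (1.39 to 1.72). Without the 2 sub-clusters that were mostly predicted doublets, the value was 42.2 (19.1 to 116). *Cx3cr1* had 166 UMIs per *Siglech* UMI (84.1 to 386), against 4.56 in microglia-like cells (4.23 to 4.91). Under control Ab there were 1.47 *Tmem119* UMIs per *Sall1* UMI in macrophage-like cells (1.03 to 2.11), against 1.26 in microglia-like cells (1.19 to 1.33). Without the mostly doublet sub-clusters the control Ab value was 1.6 (0.84 to 3.24). *Cx3cr1* had 5.20 UMIs per *Siglech* UMI under control Ab (4.25 to 6.41), against 3.07 in microglia-like cells (2.97 to 3.16). Over all macrophage-like cells, these 2 ratios thus lay further from those of microglia-like cells under anti-CD9 Ab than under control Ab. Proportions were not those of microglia in all control Ab cells either. Without the mostly doublet sub-clusters, *Cx3cr1* had 252 and *Siglech* 28 UMIs under control Ab. In the 101 control Ab cells of the *Gpnmb* sub-cluster, *Cx3cr1* had 104 UMIs, *Fcrls* 92, *P2ry12* 20, *Siglech* 9 and *Tmem119* 0.

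*Tmem119* in the MHC class II sub-cluster under anti-CD9 Ab was at 91.8 CPM (77.5 to 108), with a UMI in 100 of 305 cells, while *Sall1* had 4 UMIs and *Siglech* 2. Under control Ab *Tmem119* was at 118 CPM there (73.9 to 178), with a UMI in 12 of 33 cells. Its log2 ratio in this sub-cluster was −0.36 (−1.01 to 0.36). In the *Gpnmb* sub-cluster *Tmem119* had 0 UMIs in 101 cells under control Ab and 37 UMIs in 35 of 175 cells under anti-CD9 Ab (38.6 CPM). The counting intervals did not overlap: 0 to 6.03 CPM under control Ab and 27.2 to 53.3 CPM under anti-CD9 Ab. Against a floor of 3 counts in the control Ab cells (4.91 CPM), the level under anti-CD9 Ab was 7.88-fold higher. That value rests on the chosen floor and leaves out counting error, so it is not a lower limit. Under anti-CD9 Ab *Tmem119* was thus found in macrophage-like sub-clusters that held few or no UMIs of *Sall1* and *Siglech*. In the 33 control Ab cells of the MHC class II sub-cluster, *Sall1* had 11 and *Siglech* 17 UMIs. There were 2.0 *Tmem119* UMIs per *Sall1* UMI in those cells (0.93 to 4.57). Whether the single cells with a *Tmem119* UMI also held *Sall1* or *Siglech* was not tested.

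Among T cell-like cells, the summed level was 145 CPM (135 to 157) under control Ab and 68.9 CPM (59.3 to 79.5) under anti-CD9 Ab, and *Gpr34* was the highest of the 9 in UMIs in both libraries. It was at 46.7 CPM (226 UMIs) and 28.7 CPM (78 UMIs), and at 1000 UMIs per cell it was found in 4.37% (3.59 to 5.25%) and 2.77% (1.80 to 4.06%) of T cell-like cells. There were 3.53 *Gpr34* UMIs per *P2ry12* UMI in T cell-like cells under control Ab (2.66 to 4.74), against 0.720 in microglia-like cells (0.700 to 0.741). With anti-CD9 Ab the values were 4.88 (2.82 to 8.95) and 0.422 (0.389 to 0.456). Under control Ab the ratio was raised in the *Cd4* and *Themis* cluster 0 (4.27, 2.77 to 6.82) and in NK cell-like cells (4.31, 2.48 to 7.96). It was also raised in both T cell clusters with *Trdc* among their leading genes (2.26 and 5.25 under control Ab). The NK cell-like cluster had 8 of 8 NK cell and 9 of 10 T cell markers raised, with *Cd8b1* and *Cd8a* among its leading genes. NK cells and T cells were therefore not separated in it. In NK cell-like cells *Gpr34* was at 77.6 and 39.3 CPM, with 69 and 15 UMIs, where *Slc2a5* had 0 UMIs in either library. The ratio of *P2ry12* to *Siglech* in T cell-like cells was nearer to that of microglia-like cells, 1.64 (1.09 to 2.51) against 2.17 (2.10 to 2.25) under control Ab. *Fcrls* in T cell-like cells was at 34.5 CPM under control Ab and 4.05 CPM under anti-CD9 Ab.

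Neutrophil-like cells, 64 under control Ab and 2627 under anti-CD9 Ab, carried the ADP receptors and *Cx3cr1*. With anti-CD9 Ab, *P2ry12* was at 67.4 CPM (220 UMIs), *Cx3cr1* at 64.7 CPM (211 UMIs) and *P2ry13* at 37.7 CPM (123 UMIs). *Siglech* had 8 UMIs there, *Gpr34* 19 and *Slc2a5* 0. Many *P2ry12* UMIs beside few of *Siglech* were not particular to neutrophils: macrophage-like cells of that library also held 220 and 8. In the *Cxcr2* and *Mmp9* cluster 8 (820 cells), *P2ry12* was at 159 CPM and *P2ry13* at 56.3 CPM, with 33.2 *P2ry12* UMIs per *Siglech* UMI (12.7 to 124) against 2.43 in microglia-like cells (2.24 to 2.63). Of all *P2ry13* UMIs in kept cells under anti-CD9 Ab, 23.1% lay in neutrophil-like cells and 49.2% in microglia-like cells. With control Ab these shares were 0.348% and 83.8%. A total for *P2ry13* over all sorted cells therefore rested on different cells in the 2 libraries. *Cx3cr1* was at 126 CPM in the *Retnlg* cluster 10 of neutrophil-like cells under anti-CD9 Ab (105 UMIs, 612 cells), where *Siglech* had 2 UMIs. With control Ab the 64 neutrophil-like cells held 56 UMIs of the 9 genes in all, too few to compare.

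Dendritic cell-like cells (104 and 214) had *Siglech* and *Cx3cr1* at levels whose intervals overlapped between the antibodies. *Siglech* was at 41.1 and 44.3 CPM (25 and 50 UMIs) and *Cx3cr1* at 95.4 and 90.3 CPM, while *Fcrls* was at 113 and 12.4 CPM and *Sall1* had 4 and 2 UMIs. There were 25 *Siglech* UMIs per *Sall1* UMI under anti-CD9 Ab (6.57 to 212), against 1.51 in microglia-like cells (1.35 to 1.68). That value rests on 2 *Sall1* UMIs. Under control Ab the value was 6.25 (2.16 to 24.7), against 2.16 in microglia-like cells (2.06 to 2.27), and these intervals overlapped. Plasmacytoid dendritic cells, the known carriers of *Siglech* outside microglia, formed no named cluster, so they could not be told apart from other dendritic cells here.

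**Figure D5:**
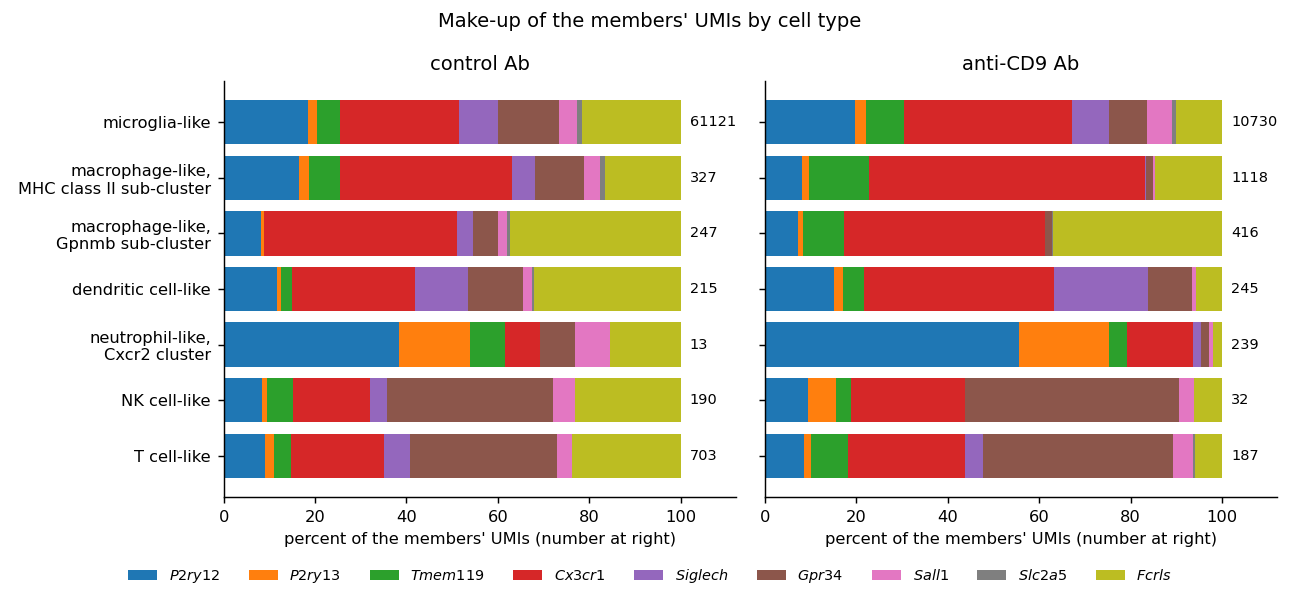
Make-up of the UMIs of the 9 genes (percent per gene, with the number of UMIs at the right of each bar) in microglia-like cells and 6 other cell groups, under control Ab (left) and anti-CD9 Ab (right). *Gpr34* takes the widest part in NK and T cell-like cells, *P2ry12* and *P2ry13* in *Cxcr2* neutrophil-like cells under anti-CD9 Ab, and *Cx3cr1* in both macrophage-like sub-clusters; the bar of *Cxcr2* neutrophil-like cells under control Ab rests on 13 UMIs.

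Counted over all kept cells, microglia-like cells held 82.8% of the UMIs of the 9 genes under control Ab and 64.8% under anti-CD9 Ab, and macrophage-like cells 2.36% and 14.1%. For *Sall1* and *Slc2a5* the microglial share stayed near that of the control Ab library (81.4% and 77.3%, and 81.4% and 85.0%, respectively). For *Tmem119*, *Cx3cr1* and *Fcrls*, macrophage-like cells held 20.1%, 20.3% and 21.4% of the UMIs under anti-CD9 Ab, against 2.26%, 3.05% and 2.45% under control Ab.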

How the data were processed

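Both libraries were deposited as raw UMI counts per gene and cell barcode. The authors made these counts with Cell Ranger (version 8.0.0 in the submitters' processing notes, whereas the study's methods give another version and genome build, so the build was not settled). Control Ab had 12245 barcodes and 38042608 UMIs, anti-CD9 Ab 15173 and 40825201. From the counts, cells with 200 to 7500 genes and at most 2% mitochondrial UMIs were kept, and doublets were predicted (10.7% and 12.4% of kept cells) but kept. Cells were integrated and clustered with Seurat 5.3.0 (R 4.3.3; 2000 variable genes less the members, companion and partner lists, 30 principal components, resolution 0.8). Clusters were named from marker lists, by a naming rule set after the data were seen. UMIs were summed per library and cell type and divided by the total. Intervals are exact (Poisson, Clopper-Pearson, or conditional binomial for ratios), computed with Python 3.11.15, numpy 2.4.6, scipy 1.17.1 and pandas 2.3.3, and figures drawn with matplotlib 3.10.9. Ratios needed at least 50 UMIs over both libraries where a gene was counted against all genes. The scripts were tested on simulated data. With 1 library per antibody no test between groups was made. The 9 genes and all lists were chosen with earlier results of these data known. Named list genes were the 3 lowest and 3 highest ratios, with partners named for their role. Some genes that this rule or the likeness measure would name are not reported here.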

Additional observations from a re-analysis of the deposited data

How the results depend on the processing

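In microglia-like cells *P2ry12*, *P2ry13*, *Cx3cr1*, *Siglech*, *Gpr34*, *Sall1*, *Slc2a5* and *Fcrls* had a lower CPM under anti-CD9 Ab in 11 of 11 other settings, whereas *Tmem119* (0.07) changed sign in 2 of 11, at the control Ab composition of clusters and with median-of-ratios scaling (range −0.08 to 0.13). The median log2 ratio of the 9 genes (−0.59) was −0.83 at the control Ab composition of clusters, −0.66 with median-of-ratios scaling and −0.67 with up to 5% mitochondrial counts, and ranged from −0.83 to −0.56 over 12 settings. Their summed ratio (−0.67) was −0.81, −0.74 and −0.73 under these settings, −0.71 with another random seed of the clustering and −0.73 with the damage-associated genes left out of the total. The difference in the share of cells with 5 or more of the genes (−27.7 percentage points) was −21.2 after thinning to 1000 UMIs. The macrophage-like sum (−1.83) was −1.93 with 20 principal components, −1.97 with the T cell CPM subtracted, −2.67 with another seed, −0.28 without integration, −1.99 with the damage-associated genes left out of the total, −1.39 with up to 5% mitochondrial counts, −0.83 without predicted doublets and −1.01 without the mostly doublet sub-clusters, an alternative added after the data were seen. The causes of these shifts were not tested. No paired analysis was possible because there was 1 library per antibody, and for the same reason no replicate could be left out. Counting error does not cover differences between mice or libraries, so no ratio here separates the antibody from the library.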

Other observations

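Across 42 sums of UMIs per cluster and library (27 clusters, sums of at least 50 cells, 11772 genes), among the genes whose levels ran most like the mean of the 9 were *Slco2b1* (Pearson's r 0.967), an organic anion transporter, *Gal3st4* (0.963), *Daglb* (0.953), a diacylglycerol lipase, and *Ptgs1* (0.951), cyclooxygenase 1. *Slco2b1* stood in the lists already. *Fcrls* ran most like *Trem2* (0.965), a lipid-sensing receptor of the damage-associated state, and *Sall1* most like *Slco2b1* (0.981). The sums of 1 library share its depth and base composition, so these values describe the clusters and carry no p.

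Within microglia-like cells thinned to 2000 UMIs, *P2ry12* and *Siglech* counts had a correlation over cells of 0.377 with control Ab (1501 cells) and 0.320 with anti-CD9 Ab (726 cells), and *P2ry12* and *Fcrls* of −0.157 with control Ab. These cells share a library and hold few UMIs of each gene.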
